A study of Mus musculus with 8 samples.

Results

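The IgG Fc receptors were followed as 7 genes, chosen by name: the activating Fcγ receptors Fcgr1, Fcgr3 and Fcgr4, their shared signaling chain Fcer1g, the inhibitory receptor Fcgr2b, the neonatal Fc receptor Fcgrt and the cytosolic Fc receptor Trim21. All 7 were found among the 26939 genes of the deposited tables, and all 7 passed the filter on low counts in every comparison. The RNA came from tumor-associated macrophages (TAMs) of EO771 tumors, a mouse breast cancer line placed in the mammary fat pad of female C57BL/6J mice aged 8 to 14 weeks, and was sequenced in bulk after harvest on day 21. The 4 groups held 2 libraries each: WT control and WT αMARCO, and in the mutant Unc93b1 3d/3d control and Unc93b1 3d/3d αMARCO. Unc93b1 3d/3d mice carry a germline missense mutation in the chaperone that brings endosomal Toll-like receptors to their place, and lack working TLR3, TLR7 and TLR9. αMARCO is a rat IgG1 antibody (clone ED31) against the scavenger receptor MARCO, given intravenously at 100 µg from day 3 to day 12. The labels describe the control mice as untreated or given PBS, whereas the study's methods name a rat IgG1 isotype antibody, so it is not settled whether the control TAMs had also met an injected IgG. Each control sample was pooled from 3 mice, and the pooling of the αMARCO samples is not given in the sources used here. The genotype entry of 1 of the 2 Unc93b1 3d/3d control libraries is spelled differently from its title, and the title was followed.

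Fc receptors read the constant part of an antibody. FcγRI, FcγRIII and FcγRIV pair with the γ chain encoded by Fcer1g, whose ITAM motif recruits Src-family kinases and Syk and can start phagocytosis, cytokine release and killing of antibody-coated cells. FcγRIIb carries an inhibitory ITIM motif that recruits phosphatases and sets the threshold for the activating receptors, and it can also hold an agonist antibody in place for the receptor that the antibody targets. FcRn, encoded by Fcgrt, binds IgG at acid pH in endosomes and returns it to the cell surface, and TRIM21 binds antibody that has reached the cytosol. Which of these receptors a macrophage carries therefore bears on what a therapeutic antibody can do to it.

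The libraries held between 15182618 and 26411936 counts, and the 7 genes took 0.388% to 0.457% of them. The F4/80 gene Adgre1 lay between 333 and 719 CPM (counts scaled to library size), Csf1r between 903 and 1134 CPM and Cd68 between 750 and 1051 CPM, beside a sort gate of CD45+CD11b+F4/80+, Gr-1-. Of the Gr-1 genes, Ly6g stayed at or under 0.844 CPM, while Ly6c1 had 6.26 to 17.7 CPM and Ly6c2, which classical monocytes express, 86.1 to 184 CPM. T cell genes were not absent from the WT control libraries, as given below. Cells had been incubated with an antibody against CD16/32 before sorting, which binds the products of Fcgr3 and Fcgr2b. The 3d allele is a point mutation that gene counts cannot check. Unc93b1 itself had 850 and 965 CPM in WT control and 539 and 659 CPM in Unc93b1 3d/3d control. Marco, the gene of the antibody's target, had 1 to 17 counts per library, beside a floor of 3 counts, and was not tested. One library stood apart: Unc93b1 3d/3d αMARCO replicate 2 gave short genes more counts than the others did, with a slope of -0.163 (log2 per log10 of gene length) against -0.029 to 0.076 in the other 7, and the main results that rest on it are given with and without it.

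Of the 7 genes, 4 lie within 275.7 kb of chromosome 1 (GRCm38), in the order Fcgr2b (chr1:170958617-170976547, minus strand), Fcgr4 (chr1:171018920-171029761, plus strand), Fcgr3 (chr1:171051174-171064935, minus strand) and Fcer1g (chr1:171229572-171234365, minus strand). Fcgr1 lies apart on chromosome 3 (chr3:96282909-96293969), and Fcgrt (chr7:45092990-45103851) and Trim21 (chr7:102557921-102565486) on chromosome 7, all 3 on the minus strand. Fcgr2b and Fcgr3 are close relatives, and the stretch below is shown because a read pair that lies wholly within it fits both. It is the longest run that their GENCODE transcripts share, 129 bases of coding sequence from 2 exons, joined as in the spliced mRNA and identical in both:
Fcgr2b and Fcgr3: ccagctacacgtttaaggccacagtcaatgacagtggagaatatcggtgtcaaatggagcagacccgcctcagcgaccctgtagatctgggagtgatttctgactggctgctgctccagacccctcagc
Of all 100-base windows of the Fcgr3 transcripts, 2.7% also occur in Fcgr2b, and 1.14% of those of Fcgr2b occur in Fcgr3. No such window of Fcgr1, Fcgr4 or Fcer1g occurs in another gene. Windows of Fcgr2b also occur in other genes, at most 3.29% in one gene, Cplx2, on the opposite strand. The antisense gene Gm38204 overlaps it with 14 to 147 counts per library, beside 18309 to 41423 for Fcgr2b. Whether the counting used strand is not given in the sources used here.

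The 250 bases before the RefSeq start sites of Fcgr4 and Fcgr1 (GRCm38.p6) are shown because these were the 2 promoters of the 7 in which motifs of macrophage and interferon factors were found, and because the 2 genes behaved differently. Both strands were searched for the GAS element TTCNNNGAA, the interferon-stimulated element (GAAA, any 2 bases, GAAA) and the PU.1 site AGGAAGT, with matches in capitals and no overlap between them. These letters were chosen with the sequences in view:
Fcgr4, chr1:171018676-171018925, plus strand: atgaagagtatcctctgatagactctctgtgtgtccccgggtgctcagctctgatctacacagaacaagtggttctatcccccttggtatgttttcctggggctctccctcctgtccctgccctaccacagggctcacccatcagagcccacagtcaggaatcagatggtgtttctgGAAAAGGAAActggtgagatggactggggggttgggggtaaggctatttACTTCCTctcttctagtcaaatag
Fcgr1, chr3:96293970-96294219, minus strand: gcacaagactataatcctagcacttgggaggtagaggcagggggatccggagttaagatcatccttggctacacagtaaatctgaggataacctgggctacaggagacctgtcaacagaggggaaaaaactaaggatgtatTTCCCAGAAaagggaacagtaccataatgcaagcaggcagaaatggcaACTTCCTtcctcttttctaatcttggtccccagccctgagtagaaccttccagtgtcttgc
In Fcgr4 the capitals mark an interferon-stimulated element that starts 73 bases before the start site and a PU.1 site, read on the other strand, at 24 bases. In Fcgr1 they mark a GAS element at 109 bases and a PU.1 site, also on the other strand, at 61 bases. Over 32851 mouse promoters, 2.98% hold the interferon-stimulated letters, 7.02% the GAS letters and 7.69% the PU.1 letters in the same window, so a match is a description of the sequence and not a site shown to be used.

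Per unit of gene length, most of the Fc receptor genes were among the most abundant RNAs of the sorted cells. On the deposited FPKM scale, Fcer1g had a mean level of 1297 over the 8 libraries, rank 23 of 26939 genes. Fcgr3 (298), Fcgr2b (256.5), Fcgr1 (245) and Fcgr4 (234.5 FPKM) held ranks 148 to 198. Fcgrt had 58.4 FPKM and Trim21 14.6 FPKM. The order of the 4 Fcγ receptors differed between the groups. Fcgr4 was the leading one in both WT control libraries, with 33.6% and 41.5% of the summed FPKM of the 4 receptors. It was the least abundant in both Unc93b1 3d/3d groups, with 12.5% and 13.9% in control and 8.18% and 11.4% under αMARCO. Fcgr2b held 18.2% and 14.4% in WT control and between 26.3% and 33.3% in the 6 libraries of the other groups. These are shares of RNA, and the FPKM lengths count all annotated exons of a gene, 5790 bases for Fcgr2b and 1256 for Fcgr4.

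**Figure D1:**
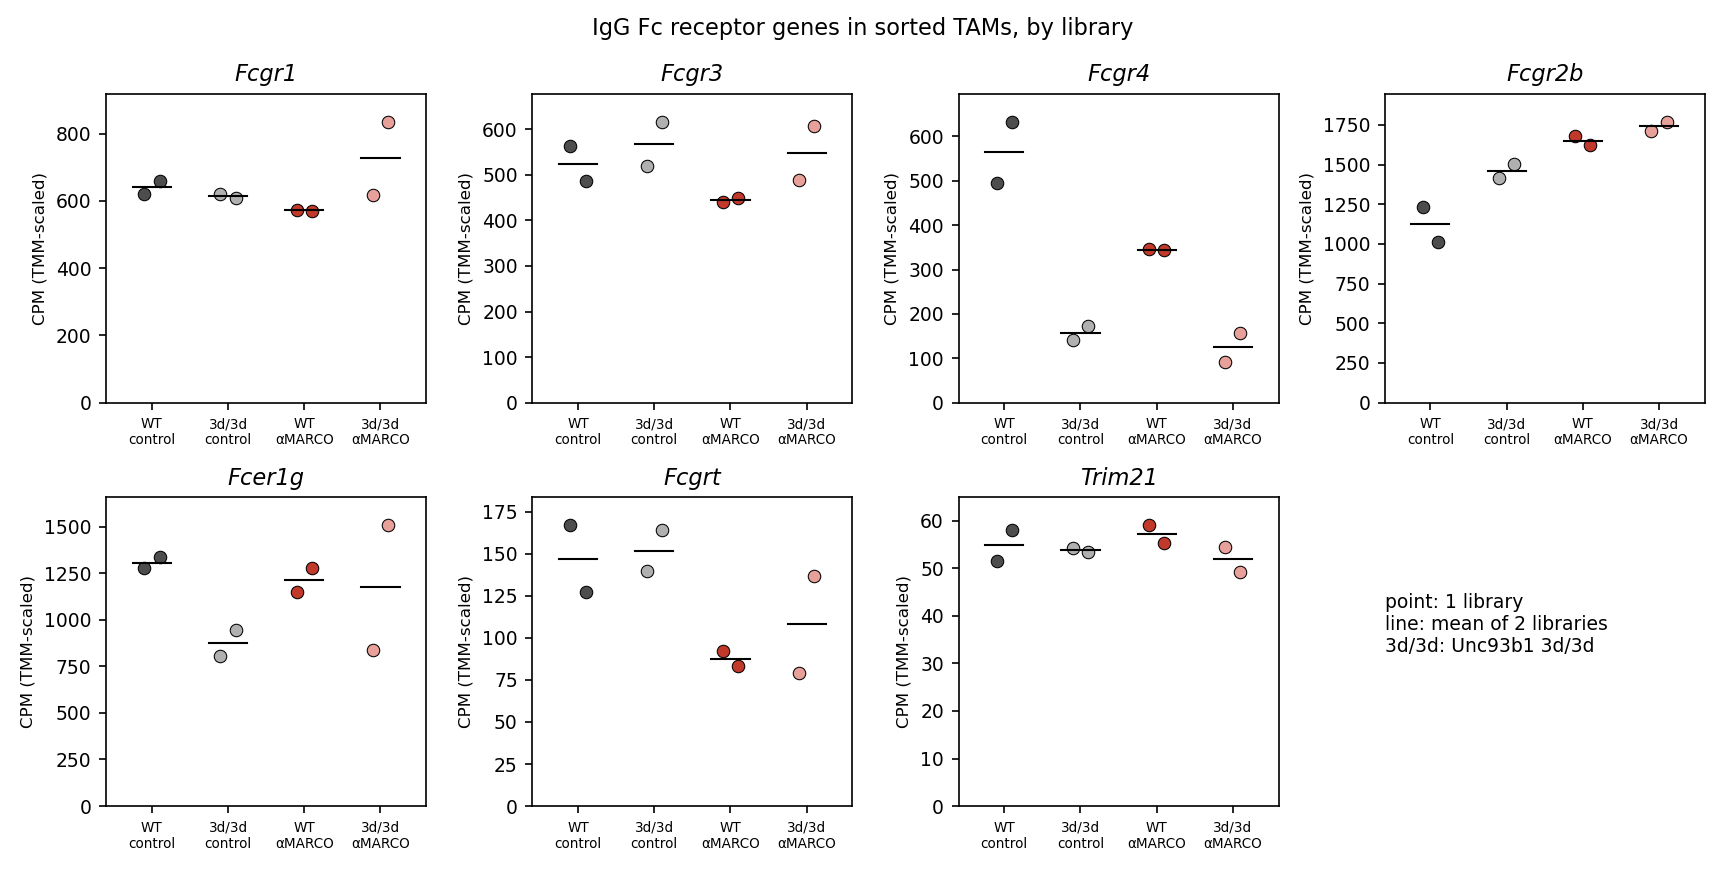
Level of each of the 7 Fc receptor genes (vertical axis, CPM after TMM scaling, from 0) in the 4 groups, with 1 point per library and a line at the mean of 2. Fcgr4 lies between 494 and 634 CPM in WT control and at or under 172 CPM in both Unc93b1 3d/3d groups, while Fcgr2b is lowest in WT control.

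Genes were called where the edgeR adjusted p was at most 0.05 and the log2 fold change at least 0.5 in size. With αMARCO in WT mice, 3 of the 7 genes were called: Fcgr2b rose, and Fcgr4 and Fcgrt fell. Of all 15630 genes tested in that comparison 20.7% were called, 8.91% higher and 11.8% lower under αMARCO. Between the genotypes in control TAMs, 2 of the 7 were called, Fcgr4 and Fcer1g, both higher in WT, where 13% of 15600 genes were called, 6.58% higher and 6.40% lower in WT. The members were called in a larger share than all genes in both comparisons, but over 7 genes only, and this was not tested. None of the 7 was called in the αMARCO comparison within Unc93b1 3d/3d mice, between the genotypes under αMARCO, or in the test of whether the αMARCO effect differed between genotypes. In each of these 3 tests edgeR called 0% of the 15428, 15722 and 16620 genes tested, with 744, 1076 and 2549 genes at an unadjusted p of 0.05 or less. DESeq2 called 52, 195 and 200 genes there, among them 1 member, Fcgr4, between the genotypes under αMARCO. The first 2 comparisons share the WT control libraries, so their directions are not independent. All p-values measure the spread between samples, with 2 libraries a group where none was left out. A fit that leaves 1 library in a group measures no spread within that group, also where a gene is said to be called. The control samples were pools of mice, and whether the αMARCO samples were pools is not given.

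**Figure D2:**
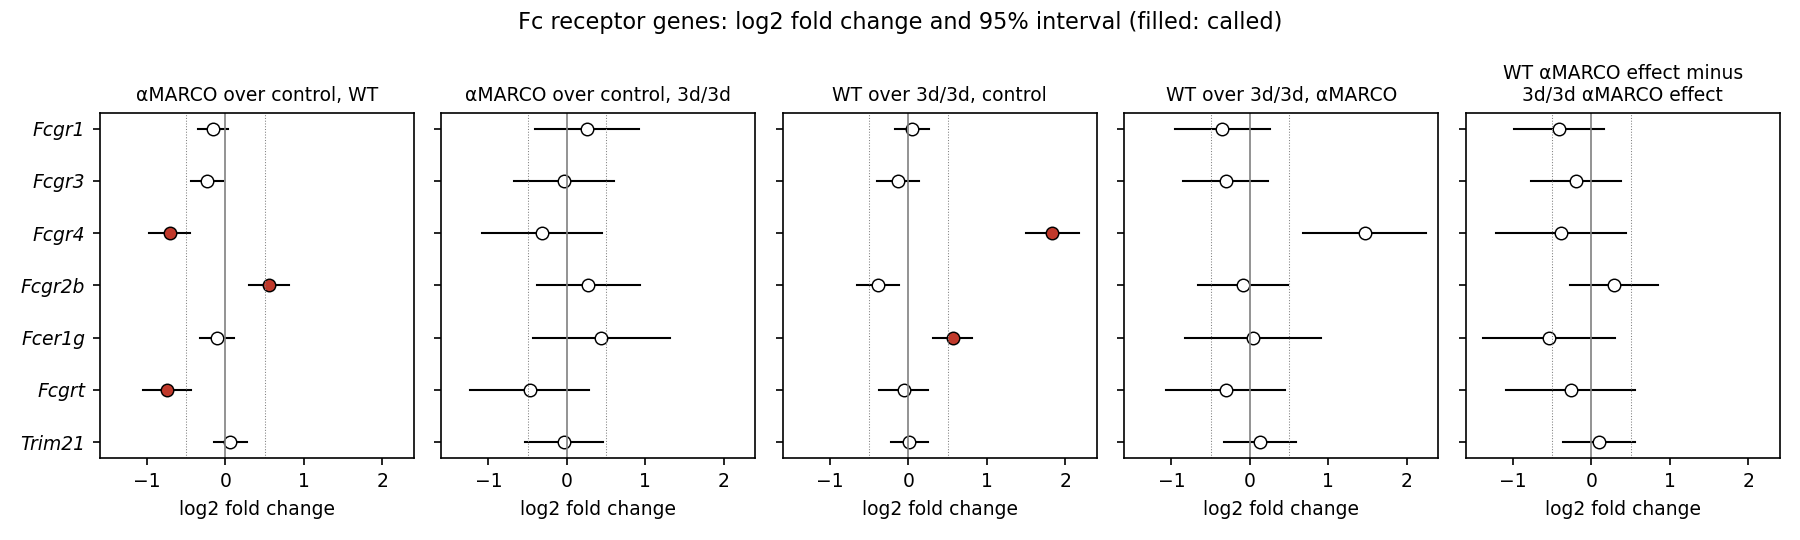
The log2 fold change (horizontal axis) of each Fc receptor gene with its 95% interval in the 4 comparisons and, at the right, in the test of the difference between the 2 αMARCO effects. Filled points were called, dotted lines mark 0.5 in either direction, and intervals that include Unc93b1 3d/3d αMARCO libraries are wider than those of the 2 comparisons without them.

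Fcgr4 encodes FcγRIV, which binds mouse IgG2a and IgG2b and is found on monocytes, macrophages and neutrophils. It had 494 and 634 CPM in WT control, 141 and 172 CPM in Unc93b1 3d/3d control, 346 and 344 CPM in WT αMARCO, and 91.2 and 158 CPM in Unc93b1 3d/3d αMARCO. Every WT library was above every Unc93b1 3d/3d library, and the 2 WT groups did not overlap. In control TAMs the level was 3.56-fold higher in WT (log2 fold change 1.83 ± 0.15 SE, 95% interval 1.5 to 2.17, n = 2 and 2, adjusted p = 0.000196, edgeR quasi-likelihood test with Benjamini-Hochberg adjustment). Leaving out any 1 of these 4 libraries gave 1.65 to 2.01, and Fcgr4 was still called. With αMARCO in WT mice Fcgr4 fell by 0.71 on the log2 scale (SE 0.12, 95% interval -0.97 to -0.45, edgeR adjusted p = 0.00206), and in the 4 fits that left out 1 library it was called again, at -0.88 to -0.52. Fitted together with the Unc93b1 3d/3d libraries, which share their spread with it, the same fall had an edgeR adjusted p = 0.185. Between the genotypes under αMARCO the log2 fold change was 1.46 ± 0.30 (95% interval 0.68 to 2.24), with an unadjusted p of 0.00486 and an edgeR adjusted p = 0.439, while the DESeq2 adjusted p was 0.00129. Without replicate 2 of Unc93b1 3d/3d αMARCO it was 1.89, and without replicate 1 it was 1.13, each fit holding 1 library of that group.

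Fcgr1 encodes FcγRI, the high-affinity receptor and a common macrophage marker. Its level was 621 and 660 CPM in WT control, 621 and 607 CPM in Unc93b1 3d/3d control, and 574 and 571 CPM in WT αMARCO. In Unc93b1 3d/3d αMARCO the libraries had 618 and 836 CPM. Apart from the last of these values, the libraries lay within 571 to 660 CPM. Fcgr1 was called in none of the 4 comparisons with all libraries. The difference between genotypes in control TAMs was 0.04 on the log2 scale, with a 95% interval of -0.18 to 0.26, so a difference of the size found for Fcgr4 lay outside it. Between the genotypes under αMARCO the value was -0.36, and it was -0.54 without replicate 1 of Unc93b1 3d/3d αMARCO and -0.14 without replicate 2. The log2 fold change was -0.16 with αMARCO in WT (95% interval -0.35 to 0.03).

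Fcgr3 encodes FcγRIII (CD16), a low-affinity activating receptor also used by natural killer cells. It had 562 and 487 CPM in WT control, 520 and 617 CPM in Unc93b1 3d/3d control, 441 and 449 CPM in WT αMARCO, and 488 and 607 CPM in Unc93b1 3d/3d αMARCO. The WT αMARCO libraries were the lowest of the 8, and the other 3 groups overlapped. The log2 fold change with αMARCO in WT was -0.24 ± 0.09 (95% interval -0.44 to -0.03, edgeR adjusted p = 0.0748), which was not called. How many reads fit both Fcgr3 and Fcgr2b was not measured.

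Fcer1g encodes the γ chain without which FcγRI, FcγRIII and FcγRIV do not reach the surface in number, and which also serves the IgE receptor and several C-type lectins. It had 1277 and 1337 CPM in WT control and 804 and 943 CPM in Unc93b1 3d/3d control. Under αMARCO the WT libraries had 1150 and 1279 CPM and the Unc93b1 3d/3d libraries 838 and 1508 CPM. In control TAMs it was 1.48-fold higher in WT (log2 fold change 0.56 ± 0.11, 95% interval 0.31 to 0.82, edgeR adjusted p = 0.0093). This value stood close to the fold change threshold: it was 0.46 without replicate 1 of Unc93b1 3d/3d control and 0.49 once gene length and GC content were corrected for, and was then not called. With all 8 libraries in one fit it was 0.58, above the fold threshold, and not called (edgeR adjusted p = 0.334). Fcer1g has 874 bases, the shortest of the 7, and its highest value came from Unc93b1 3d/3d αMARCO replicate 2. For αMARCO in Unc93b1 3d/3d mice its log2 fold change was 0.44, and 0.46 with length and GC content corrected for.

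Fcgr2b encodes FcγRIIb (CD32b), the only inhibitory receptor of the family. It had 1233 and 1014 CPM in WT control, 1415 and 1502 CPM in Unc93b1 3d/3d control, 1680 and 1622 CPM in WT αMARCO, and 1713 and 1771 CPM in Unc93b1 3d/3d αMARCO. The groups followed each other in this order with no overlap between any 2 of them. The share of all genes that separate in this way was not counted. Between the genotypes under αMARCO the log2 fold change was -0.09 (95% interval -0.66 to 0.48, edgeR adjusted p = 0.887). With αMARCO in WT mice Fcgr2b rose 1.47-fold (log2 fold change 0.56 ± 0.11, 95% interval 0.31 to 0.81, edgeR adjusted p = 0.00469). Without replicate 2 of WT control, the library with the lowest level, the log2 fold change was 0.42 and the rise was under the fold threshold. With all 8 libraries in one fit it was 0.55 and not called (edgeR adjusted p = 0.15). In control TAMs Fcgr2b was lower in WT by 0.39 on the log2 scale (95% interval -0.66 to -0.13, edgeR adjusted p = 0.0476), which passed the adjusted p but not the fold threshold. It was -0.25 without replicate 2 of WT control and -0.53 without replicate 1. The paper reported no change of FcγRIIb on TAMs between these genotypes, measured with an antibody and not as RNA. In Unc93b1 3d/3d mice αMARCO came with a log2 fold change of 0.27 ± 0.27 (95% interval -0.39 to 0.93, edgeR adjusted p = 0.831). It was 0.29 without replicate 1 and 0.26 without replicate 2 of the αMARCO group, and 0.38 with length and GC content corrected for. The difference between the 2 αMARCO effects was 0.29 (95% interval -0.28 to 0.85), 0.14 with that correction, and 0.43 without replicate 1 and 0.15 without replicate 2 of WT control.

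Fcgrt encodes the heavy chain of FcRn, which works with β2-microglobulin. Its level was 167 and 127 CPM in WT control, 140 and 164 CPM in Unc93b1 3d/3d control, 92.2 and 83.0 CPM in WT αMARCO, and 79.3 and 137 CPM in Unc93b1 3d/3d αMARCO. Both αMARCO groups were below their controls without overlap, and the 2 control groups overlapped. In WT mice Fcgrt fell by 0.75 on the log2 scale (SE 0.13, 95% interval -1.06 to -0.44, edgeR adjusted p = 0.00486), and it was called in each of the 4 fits that left out 1 library, at -0.94 to -0.54, but not with all 8 libraries in one fit (edgeR adjusted p = 0.167). In Unc93b1 3d/3d mice the log2 fold change was -0.48 ± 0.31 (95% interval -1.23 to 0.28, edgeR adjusted p = 0.823). It was -0.91 without replicate 2 of the αMARCO group and -0.14 without replicate 1. B2m, the gene of its partner, was not called in any comparison.

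Trim21 encodes a cytosolic ubiquitin ligase that binds antibody on incoming virus particles and is itself known as an interferon-induced gene. It was the least abundant and the steadiest of the 7, with 51.6 and 58.0 CPM in WT control, 54.2 and 53.4 CPM in Unc93b1 3d/3d control, 59.1 and 55.4 CPM in WT αMARCO, and 54.5 and 49.3 CPM in Unc93b1 3d/3d αMARCO. It was called in no comparison, and groups next to each other in level overlapped. The 95% interval for αMARCO in WT was -0.15 to 0.27 on the log2 scale, and that for the genotypes in control TAMs was -0.22 to 0.24.

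The balance of activating over inhibitory receptor RNA was computed within each library, as the summed FPKM of Fcgr1, Fcgr3 and Fcgr4 over that of Fcgr2b. In WT mice the ratio was 4.49 and 5.94 in the control libraries and 2.59 and 2.69 under αMARCO. In Unc93b1 3d/3d mice it was 2.67 and 2.80 in the controls and 2.002 and 2.61 under αMARCO. Both WT control libraries were above all 6 others, which lay close together. On the log2 scale the mean of WT αMARCO was 0.97 below that of WT control (difference -0.97), and WT control was 0.92 above Unc93b1 3d/3d control. In Unc93b1 3d/3d mice the difference was -0.26, and it was -0.07 without replicate 1 and -0.45 without replicate 2 of the αMARCO group. Under αMARCO the genotypes overlapped, with WT higher by 0.21, or by 0.02 without replicate 1 and 0.40 without replicate 2 of Unc93b1 3d/3d αMARCO. No p-value is given for a ratio, because an exact permutation test of 2 against 2 libraries cannot go below 0.333.

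Taken singly, Fcgr4 over Fcgr2b moved the most. In WT mice it was 1.85 and 2.88 in the controls and 0.949 and 0.976 under αMARCO, and in Unc93b1 3d/3d mice 0.458 and 0.528 in the controls and 0.246 and 0.411 under αMARCO. Fcgr3 over Fcgr2b was 1.52 and 1.60 in WT control and 0.876 and 0.924 in WT αMARCO, and Fcgr1 over Fcgr2b was 1.13 and 1.46 against 0.764 and 0.788. In WT mice all 3 ratios were thus lower under αMARCO, and all 3 share Fcgr2b as the divisor. With Fcgr3 left out of the sum, since it shares sequence with Fcgr2b, the genotype difference in control TAMs was 1.32 instead of 0.92 on the log2 scale.

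**Figure D3:**
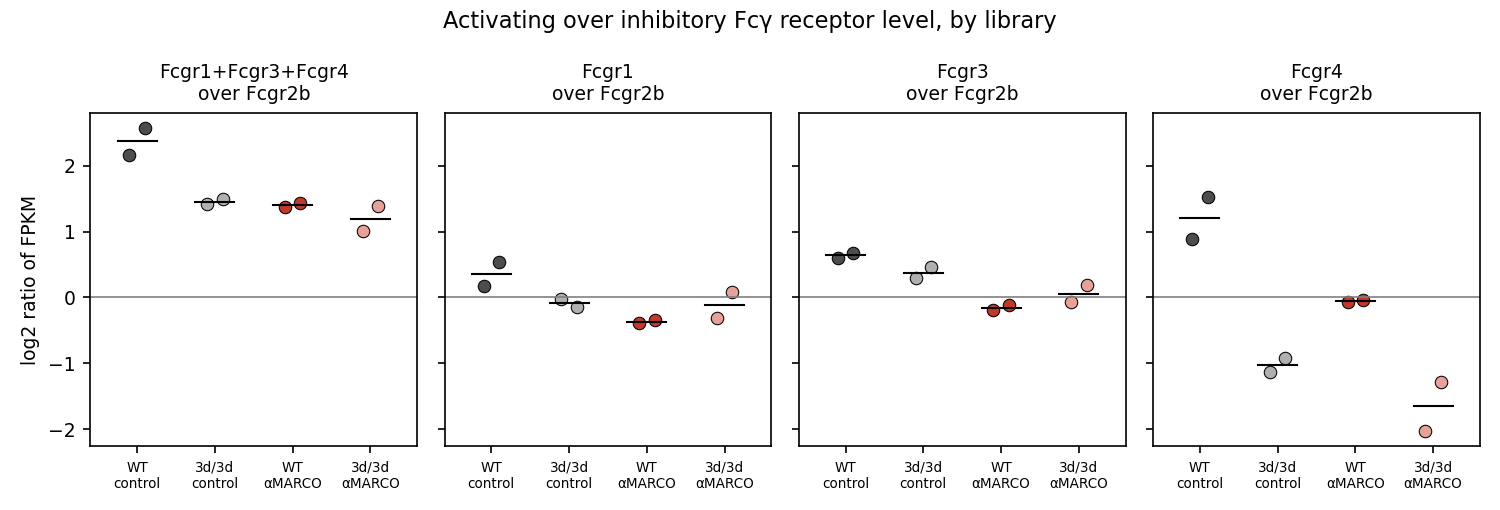
The log2 ratio of FPKM (vertical axis) of the summed activating receptors, and of Fcgr1, Fcgr3 and Fcgr4 singly, over Fcgr2b, with 1 point per library and a line at the mean of 2. The summed ratio is 2.17 and 2.57 in WT control and between 1.002 and 1.49 in the other 6 libraries.

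Fcgr4 is also high in nonclassical monocytes, and genes that mark them were examined beside it. The genes named here and in the next paragraphs on cell type lists were picked after their values were seen. Of 10 listed nonclassical monocyte genes, 5 were called higher and 1 lower in WT control over Unc93b1 3d/3d control, and 1 rose and 5 fell with αMARCO in WT. Cd300e had 558 and 615 CPM in WT control, 10.04 and 7.56 CPM in Unc93b1 3d/3d control, 253 and 271 CPM in WT αMARCO, and 13.6 and 9.78 CPM in Unc93b1 3d/3d αMARCO, the same order of the first 3 groups as Fcgr4 by larger steps. Spn (CD43) had 133 and 165 CPM in WT control and 20.5 and 21.2 CPM in Unc93b1 3d/3d control. Nr4a1 went the other way with αMARCO in WT (log2 fold change 0.61, edgeR adjusted p = 0.00378), and Cx3cr1 was lower in WT control (log2 fold change -0.92, edgeR adjusted p = 0.00707). Treml4, a defining gene of these monocytes, had 6.85 and 1.55 CPM in WT control and 0.69 and 0.71 CPM in Unc93b1 3d/3d control. It had 2.85 and 0.70 CPM in WT αMARCO and 0.089 and 0.75 CPM in Unc93b1 3d/3d αMARCO, and was not called. The summed CPM of the list was 1509 to 1556 in WT control, 500 to 631 in Unc93b1 3d/3d control, 1268 to 1451 in WT αMARCO and 857 to 1093 in Unc93b1 3d/3d αMARCO. The part of these cells in the Fcgr4 values was not tested. In bulk RNA, fewer cells of a type and less RNA per cell cannot be told apart.

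Other cell types also moved with the WT control group. All 8 listed T cell genes were called higher in WT control than in Unc93b1 3d/3d control, and all 8 fell with αMARCO in WT. Their summed CPM was 94.3 to 103 in WT control, 7.71 to 17.1 in Unc93b1 3d/3d control, 7.68 to 11.6 in WT αMARCO and 3.69 to 4.51 in Unc93b1 3d/3d αMARCO. Natural killer cells carry Fcgr3. Of their listed genes 3 of 8 tested were higher in WT control than in Unc93b1 3d/3d control and 4 of 7 tested fell with αMARCO in WT, with sums of 46.9 to 54.9 CPM in WT control, 5.43 to 17.9 in Unc93b1 3d/3d control, 6.14 to 12.2 in WT αMARCO and 4.97 to 8.21 in Unc93b1 3d/3d αMARCO. Ncr1 stayed at or under 0.941 CPM. Fcgr3 itself was not higher in WT control than in Unc93b1 3d/3d control. With αMARCO in WT it was lower without overlap (log2 fold change -0.24), though not called. Mature dendritic cell genes such as Ccr7 (215 and 119 CPM in WT control, 11.1 to 16.4 in Unc93b1 3d/3d control, 10.5 to 16.8 in WT αMARCO and 9.10 to 12.0 in Unc93b1 3d/3d αMARCO) were called higher in WT control in 2 of 6 tested and fell with αMARCO in 4 of 6. The part of these cells in the receptor values was not tested.

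B cells carry Fcgr2b as their only Fcγ receptor, and mast cells and basophils carry Fcer1g. Cd79a stayed at or under 0.626 CPM in all 8 libraries. Over the B cell list, 1 of 5 tested genes was higher and 1 lower in WT control than in Unc93b1 3d/3d control, and 1 of 5 fell with αMARCO in WT. Cd79b was higher in WT control and fell with αMARCO, with 36.7 and 41.2 CPM in WT control and 17.1 and 15.8 CPM in WT αMARCO. Cd22 was lower in WT control than in Unc93b1 3d/3d control (log2 fold change -1.05, edgeR adjusted p = 0.00935), the direction of Fcgr2b. The median over the 5 tested genes was -0.91 between the genotypes in control TAMs and 0.67 with αMARCO in WT, the same signs as Fcgr2b. Cd79b and the list's summed CPM went opposite to Fcgr2b in both comparisons. The part of B cells in the Fcgr2b values was not tested. The list's summed CPM was 51.9 to 62.7 in WT control, 37.0 to 40.5 in Unc93b1 3d/3d control, 33.5 to 37.1 in WT αMARCO and 19.9 to 25 in Unc93b1 3d/3d αMARCO. Mast cell and basophil genes summed to between 2.38 and 6.53 CPM over the 8 libraries, with Fcer1a and Ms4a2 at 0 in WT control, and 1 of 4 tested was lower in WT control than in Unc93b1 3d/3d control. Of the neutrophil genes, which mark another carrier of FcγRIV, 1 of 7 tested was higher in WT control than in Unc93b1 3d/3d control and 3 of 6 fell with αMARCO in WT, Camp being at 0 in both WT groups. The neutrophil sum was 321 to 343 CPM in WT control, 231 to 269 in Unc93b1 3d/3d control, 376 to 386 in WT αMARCO and 220 to 262 in Unc93b1 3d/3d αMARCO, most of it Csf3r, which monocytes also express.

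**Figure D4:**
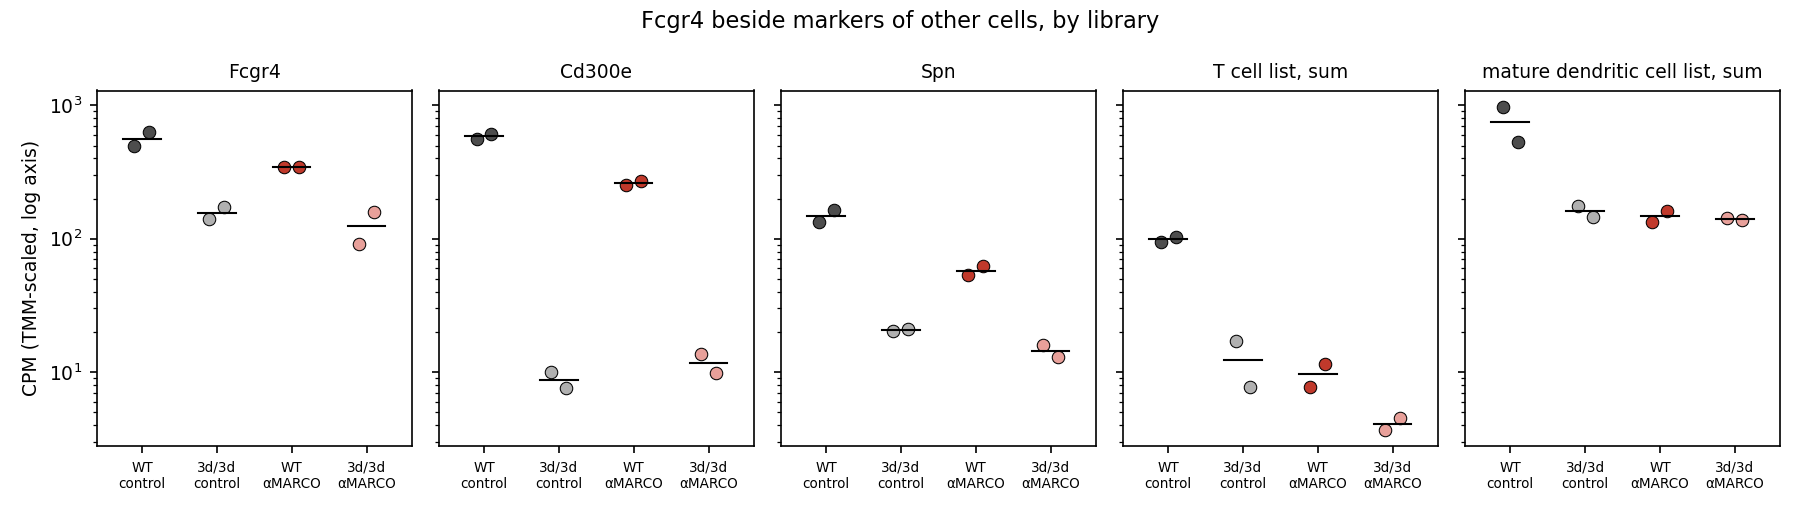
Fcgr4 beside Cd300e, Spn and the summed T cell and mature dendritic cell lists (vertical axis, CPM after TMM scaling, log scale), with 1 point per library and a line at the mean of 2. In WT αMARCO, Fcgr4 and Cd300e lie below their WT control levels and above those of Unc93b1 3d/3d control, while the T cell sum is at 7.68 and 11.6 CPM, within the range of Unc93b1 3d/3d control or just under it.

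The macrophage list holds the member Fcgr1. Between the genotypes in control TAMs, 1 of its 8 genes, Itgam, was higher in WT (log2 fold change 0.63) and 1, Mertk, was lower (-1.30). With αMARCO in WT 3 fell: Adgre1 (log2 fold change -0.54), C1qa (-0.73) and C1qb (-0.59). Of 7 classical monocyte genes, 2 rose with αMARCO in WT and the same 2, F13a1 and Ccr2, were lower in WT control than in Unc93b1 3d/3d control. Of the 3 Gr-1 genes none was called between the genotypes in control TAMs, and Ly6c1 was the 1 of 2 tested that fell with αMARCO in WT.

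Interferons raise Fc receptor genes in macrophages, interferon-gamma above all Fcgr1 and Fcgr4. Of 16 listed interferon-gamma response genes, 6 were called higher in WT control than in Unc93b1 3d/3d control and none lower, with a median log2 fold change of 0.45 over the list and -0.00 over all genes. The 6 were Irf1, Socs1, Igtp, Gbp2, Gbp3 and Gbp4. None of the 16 was called with αMARCO in WT, and their median was -0.08. Of 16 type I interferon response genes, 1 (Rsad2) was lower in WT control than in Unc93b1 3d/3d control, and 2 (Oas2 and Stat2) rose with αMARCO in WT. Fcgr4 was higher and Fcgr1 was not called in the first of these comparisons, and Fcgr4 fell in the second. Whether interferon had a part in the receptor values was not tested.

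The αMARCO libraries of Unc93b1 3d/3d mice lay far apart in several members. Their values were 618 and 836 CPM for Fcgr1, 91.2 and 158 CPM for Fcgr4, 838 and 1508 CPM for Fcer1g, and 79.3 and 137 CPM for Fcgrt, each time with replicate 2 above replicate 1. Fcgr2b and Trim21 were near each other in the 2 libraries. Without replicate 2, the log2 fold changes for αMARCO in Unc93b1 3d/3d mice were -0.75 for Fcgr4, -0.91 for Fcgrt and -0.03 for Fcer1g. Without replicate 1 they were 0.02 for Fcgr4, -0.14 for Fcgrt and 0.79 for Fcer1g. Each of these fits holds 1 αMARCO library and so measures no spread between αMARCO samples. All genes called in this comparison numbered 571 without replicate 2 and 5500 without replicate 1. The difference between the αMARCO effects on Fcgr4 in the genotypes also turned on the library kept. It was -0.39 ± 0.36 with both libraries (edgeR adjusted p = 0.561), -0.72 without replicate 1 and 0.03 without replicate 2. With both libraries and length and GC content corrected for, the log2 fold changes for αMARCO in Unc93b1 3d/3d mice were -0.32 for Fcgr4 (the same as without it), -0.53 for Fcgrt (-0.48 without it) and 0.25 for Fcgr1 (0.26 without it).

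**Figure D5:**
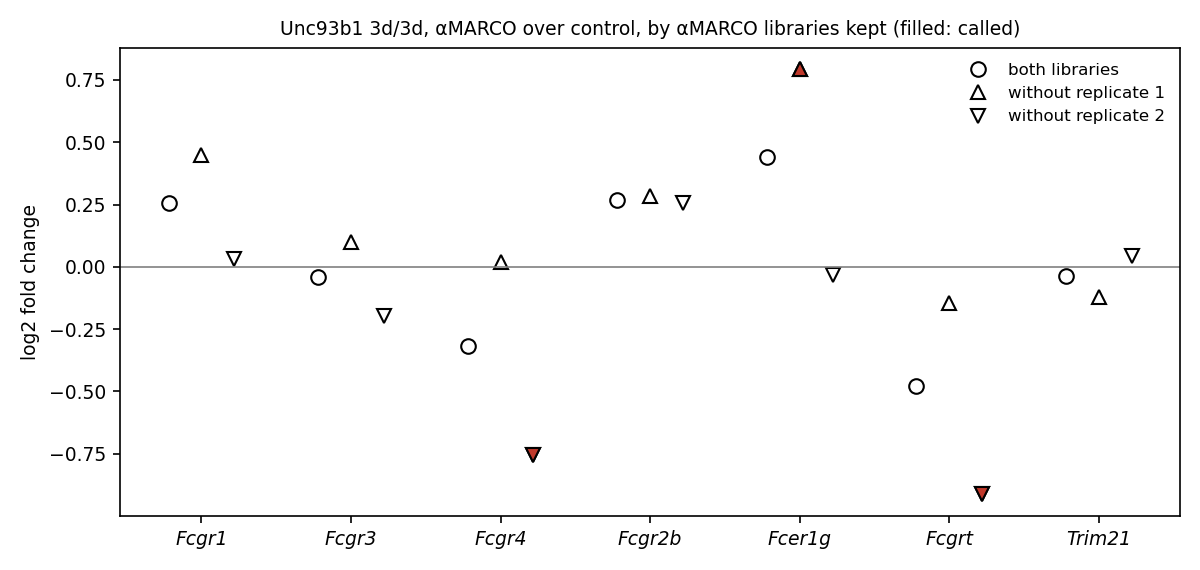
The log2 fold change of each Fc receptor gene (vertical axis) for αMARCO over control in Unc93b1 3d/3d mice, with both αMARCO libraries (circles) and without replicate 1 or replicate 2 (triangles). Filled symbols were called: Fcer1g at 0.79 without replicate 1, and Fcgr4 at -0.75 and Fcgrt at -0.91 without replicate 2, while Fcgr2b stays between 0.26 and 0.29. A triangle rests on 1 αMARCO library, so no spread between αMARCO samples is measured there.

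Genes that act downstream of the receptors were counted in the same way. Of 19 genes of activating Fc receptor signaling, 7 were called higher and 2 lower in WT control than in Unc93b1 3d/3d control, with a median log2 fold change of 0.28. The higher ones included the adaptor Lcp2 (1.12, edgeR adjusted p = 0.000374), the Src-family kinase Fgr (0.97, edgeR adjusted p = 0.000412), the GTPase Rac2 (1.08, edgeR adjusted p = 0.000535) and the regulatory subunit Pik3r5 (0.83, edgeR adjusted p = 0.00259). The kinase Tec was lower in WT (-1.05, edgeR adjusted p = 0.000547). Lcp2 had 331 and 364 CPM in WT control and 144 and 172 CPM in Unc93b1 3d/3d control, and the 2 αMARCO groups kept apart in the same way, at 244 and 265 against 156 and 189 CPM. Only Tec of the 19 was called with αMARCO in WT, as higher (0.58, edgeR adjusted p = 0.000809), with a median of -0.13 over the list.

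Of 12 phosphatases and other inhibitors that act behind ITIM receptors, 3 were higher and 3 lower in WT control than in Unc93b1 3d/3d control, and 2 rose with αMARCO in WT. Ptpn6, which encodes SHP-1, had 687 and 799 CPM in WT control and 394 and 438 CPM in Unc93b1 3d/3d control (log2 fold change 0.82, edgeR adjusted p = 0.00188). Dok2 (0.70) and Cblb (0.61) were higher as well. Inppl1, which encodes the inositol phosphatase SHIP2, was lower in WT control (-0.67, edgeR adjusted p = 0.0022) and rose with αMARCO in WT (0.66, edgeR adjusted p = 0.000571), and the ubiquitin ligase Cbl did the same (-0.63 and 0.55). Pag1 was lower in WT control (-0.64). Inpp5d, the gene of SHIP1 and the phosphatase known best for FcγRIIb signaling, was not called in any comparison.

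A list of 12 genes covered other receptors of Fcer1g or related adaptors, and also held the adaptors Tyrobp and Hcst and the inhibitory receptor Pirb. Of 10 tested, Pilrb1 was higher in WT control than in Unc93b1 3d/3d control (log2 fold change 1.56, edgeR adjusted p = 0.00014), and Trem2 (-1.50) and Clec5a (-0.89) were lower. Clec4e, which encodes the lectin Mincle and signals through the γ chain, rose with αMARCO in WT (0.71, edgeR adjusted p = 0.0234) and was the only one of the 10 called there. Of the 9 other Fc receptor genes 2 had counts enough for a test, and Fcrlb, an Fc receptor-like gene of the same family, rose with αMARCO in WT (0.75, edgeR adjusted p = 0.0278), from 93.4 and 62.8 CPM to 133 and 129 CPM. The IgE receptor genes Fcer1a, Ms4a2 and Fcer2a stayed at or under 0.311 CPM. Of 8 partners of FcRn and TRIM21, Npepps alone was called, as lower in WT control (-0.51) and higher with αMARCO in WT (0.57). None of the genes of these 5 lists was called in the 3 tests with Unc93b1 3d/3d αMARCO libraries, in which no gene at all was called.

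The genes whose log2 CPM followed each member most closely over the 8 libraries were searched among 9054 genes with a mean of at least 10 CPM. Stard5 and Acp5 (Pearson r = 0.994 each) and Serpina3g (0.992) followed Fcgr4. Habp4, Ly6a and Hint2 (0.988, 0.985 and 0.985) followed Fcgr1, and Tmem37, Snx2 and Cd63 (0.956, 0.955 and 0.942) followed Fcgr3. Fcgr2b was followed by Soat2, Acvr2a and Ints6l (0.967, 0.965 and 0.959), Fcer1g by Bcl2a1b, Engase and Ifitm2 (0.978, 0.970 and 0.970), Fcgrt by Tcn2, Dbnl and Gm13509 (0.980, 0.952 and 0.952) and Trim21 by Jak3, Pkp4 and 2410089E03Rik (0.947, 0.929 and 0.915). The points are 8 libraries in 4 groups that share group and depth, so these values describe likeness only. Among the members themselves, Fcgr4 and Fcgr2b ran against each other (r = -0.678), Fcgr4 and Fcer1g together (0.646), and Fcgr3 and Fcgrt most closely together (0.813).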

How the data were processed

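Bulk RNA of 8 TAM libraries, 2 in each of 4 groups, was analysed. Per the labels and the study's methods, the authors trimmed reads with fastp, aligned them to GRCm38 with HISAT2 2.0.5, counted them per gene with featureCounts 1.5.0 and ran DESeq2 1.40.2. The deposited tables hold raw counts and the authors' FPKM per library. Their 12 per-library columns of normalized counts, and those of group means, fold changes and p-values, were not used. The same library's counts were joined across tables by gene identifier.

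Counts were fitted with edgeR 4.0.16 (R 4.3.3, TMM scaling, filterByExpr, robust quasi-likelihood test) on the 4 libraries of each comparison, and on all 8 for the difference between αMARCO effects. Each p-value was adjusted by Benjamini-Hochberg over all genes tested. Directions are αMARCO over control and WT over Unc93b1 3d/3d. SE is the log2 fold change over the root of F. CPM used TMM over 8 libraries. FPKM served for levels between genes. A floor of 3 counts equals 0.114 to 0.198 CPM, covering counting error only. In simulated counts with 200 changed genes, edgeR recovered 90%, 72.5%, 90% and 72% of those changed by a log2 fold of 2 in the 4 comparisons. With all libraries no member changed by that much, and recovery of smaller changes was not simulated. The simulated spread followed the fitted trend over expression level, with no outlying library, so recovery in the real data may be lower.

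Named genes were the 7 members, up to 6 called genes of each pathway list and comparison by smallest adjusted p, and the 3 genes with the highest Pearson r to each member. B2m, Inpp5d, the interferon genes and genes of cell type lists were named outside that rule, after their values were seen. The lists were activating signaling, ITIM phosphatases and inhibitors, other Fc receptors, other ITAM-adaptor receptors, FcRn and TRIM21 partners, type I and gamma interferon responses, and markers of macrophages, Gr-1, neutrophils, B, NK and T cells, mast cells and basophils, nonclassical and classical monocytes and mature dendritic cells. The members and lists were chosen with earlier results of these data known. Alternatives were DESeq2 1.42.0, other filters and thresholds, all 8 libraries in one fit, a replicate block, leaving out each library and, added after seeing the data, a correction for length and GC content. Some listed genes are not reported here by name.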

Additional observations from a re-analysis of the deposited data

How the results depend on the processing

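The counts of Fc receptor genes called depended on thresholds and on single libraries. With αMARCO in WT mice 3 were called, 0 at a log2 fold change of at least 1, 0 with all 8 libraries in one fit, and 2 to 3 when 1 library was left out. Between the genotypes in control TAMs 2 were called, and 1 at the larger fold threshold, with all 8 libraries or after the length and GC correction, with 1 to 3 when 1 library was left out. Between the genotypes under αMARCO 0 were called, and 1 (Fcgr4) with DESeq2, with no filter on low counts or with the replicate block, with 0 to 3 when 1 library was left out. The count went from 0 to between 0 and 2 for αMARCO in Unc93b1 3d/3d mice and between 0 and 4 for the difference of the αMARCO effects. Without Fcgr3 in the sum, the log2 ratio over Fcgr2b differed by 1.32 between the genotypes in control TAMs (0.92 with it) and by 0.49 under αMARCO (0.21 with it). After the length and GC correction the log2 fold change of Fcer1g with αMARCO in WT was 0.002, and those between the genotypes in control TAMs were -0.048 for Fcgr1 and -0.008 for Trim21. The value for Trim21 was also -0.008 with a minimum of 10 counts in every library. Leaving out 1 library turned the sign of the following log2 fold changes, none of them called with all libraries. With αMARCO in WT this was Trim21 (-0.026 to 0.145). With αMARCO in Unc93b1 3d/3d mice these were Fcgr3 (-0.196 to 0.10), Fcgr4 (-0.753 to 0.019), Fcer1g (-0.034 to 0.794) and Trim21 (-0.120 to 0.043). Between the genotypes in control TAMs these were Fcgrt (-0.261 to 0.129) and Trim21 (-0.069 to 0.103), and under αMARCO Fcer1g (-0.306 to 0.506) and Fcgrt (-0.638 to 0.115). For the difference of the αMARCO effects these were Fcgr4 (-0.721 to 0.026) and Fcgrt (-0.597 to 0.149). The causes were not tested.

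Over all genes, the counts called in the 4 comparisons were 164, 1, 364 and 108 with all 8 libraries in one fit. With DESeq2 the counts in the 3 tests that hold Unc93b1 3d/3d αMARCO libraries were 52, 195 and 200, and with no filter 174, 107 and 152. At a log2 fold change of at least 1, 1366 genes were called with αMARCO in WT and 951 between the genotypes in control TAMs. Leaving out 1 library gave 1940 to 3951, 1 to 5500, 1493 to 2232, 17 to 6366 and 0 to 6440 genes in the 5 tests. Correlations of same-numbered deviations were -0.001, 0.112, 0.010 and 0.136 in the 4 comparisons. With 2 libraries a group they cannot settle whether replicate numbers pair the samples. Between the genotypes under αMARCO, the replicate block took the genes called from 0 to 97. With the replicate block 3, 0, 2 and 1 Fc receptor genes were called in the 4 comparisons and 0 in the test of the difference. The antigen gene Marco, with 1 to 17 counts per library, and most IgE receptor genes had too few counts to be compared.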

Other observations

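B2m, whose product pairs with FcRn, had 3574 and 4095 CPM in WT control, 3042 and 3000 CPM in Unc93b1 3d/3d control, 3006 and 3337 CPM in WT αMARCO, and 2887 and 5158 CPM in Unc93b1 3d/3d αMARCO. The last value was the highest of the 8.

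Fcrla, an intracellular Fc receptor-like gene of B cells, had 1.053 to 3.01 CPM, with the highest value in Unc93b1 3d/3d αMARCO replicate 2. Fcmr, the IgM receptor gene, and Fcgbp stayed at or under 0.166 CPM in every library, with Fcgbp at 0 outside WT control. Trem2, a receptor that signals through Tyrobp, had 5.33 and 16.1 CPM in the 2 Unc93b1 3d/3d αMARCO libraries, beside 2.95 and 4.54 CPM in WT αMARCO.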
